A study of Mus musculus with 8 samples.

Results

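The genes described here are Bdh1 and 5 others grouped with it under the uptake and burning of ketone bodies. The others are the enzymes Bdh2, Oxct1 and Acat1 and the monocarboxylate carriers Slc16a1 and Slc16a7. The 6 genes are among the 24883 rows of a gene expression table of mouse visual cortex. The set was chosen by gene name, as ketone body enzymes and monocarboxylate carriers, with the difference of Bdh1 between treated and control libraries already known. The group differences of these genes are therefore given as a description, and the p-values of that comparison support nothing about them.

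RNA was sequenced from the visual cortex of adult C57BL/6J mice in 8 samples. A locked nucleic acid (LNA) oligonucleotide, a short strand with stiffened sugars that pairs tightly with its target, was injected into the cortex on postnatal day 122, and tissue was collected 7 days later, on postnatal day 129. In 4 samples the oligonucleotide had a scrambled sequence (the control), and in 4 it was complementary to miR-29a. All 8 samples had thus been injected with an LNA, and an uninjected group was not analysed here. The labels do not say whether a sample is 1 animal or several, nor that samples came from separate animals, so each p-value reflects only how far these samples scatter, part of which may be technical. The tissue holds all its cell types, and in such bulk RNA fewer cells of a type and less RNA per cell cannot be told apart.

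Ketone bodies are small fuels that the liver makes from fatty acids during fasting and that the brain burns when glucose is short. Beta-hydroxybutyrate and acetoacetate enter brain tissue through monocarboxylate carriers, which also move lactate and pyruvate. Inside mitochondria beta-hydroxybutyrate is oxidised to acetoacetate by the enzyme from Bdh1, acetoacetate receives coenzyme A from succinyl-CoA through the enzyme from Oxct1, and the thiolase from Acat1 splits the product into acetyl-CoA for the citric acid cycle. A microRNA lowers the output of a messenger RNA by pairing its seed, bases 2 to 8, with a site that usually lies in the 3' UTR.

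The mature forms of miR-29 are shown first, because they share the seed that the matches in the members were counted against. They come from RefSeq (GRCm38.p6), are written 5' to 3', and carry the seed in capitals.
mmu-miR-29a-3p: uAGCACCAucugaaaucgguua
mmu-miR-29b-3p: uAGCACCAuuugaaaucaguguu
mmu-miR-29c-3p: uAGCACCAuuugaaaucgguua
The seed is the same in all 3, so a site for miR-29a is a site for the whole family. The 4 precursor rows, Mir29a, Mir29b-1, Mir29b-2 and Mir29c, were listed at 0 FPKM in all 8 libraries, so the table holds no direct reading of the block. FPKM counts the sequenced fragments of a gene per kilobase of its transcript and per unit of library depth.

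The letters TGGTGCT, the complement of the seed, were then looked for on the transcribed strand of the longest annotated 3' UTR of each gene. Bdh1 held 4 matches in 1807 nt, Oxct1 held 1 in 1575 nt and Slc16a1 held 1 in 2740 nt. Bdh2 (205 nt), Acat1 (2023 nt) and Slc16a7 (8742 nt) held 0. Slc16a7 did hold 3 sites of another kind, complementary to bases 2 to 7 and followed by an A, which this search does not count. These are the 6 stretches around the matches, in GENCODE M21 transcripts (GRCm38, the assembly of mm10), all on the plus strand, with the match in capitals.
Bdh1 match 1: aacctcagggccaataTGGTGCTtcta
Bdh1 match 2: ttgcctaggacaggatTGGTGCTatgc
Bdh1 match 3: ggattggtgctatgctTGGTGCTgcaa
Bdh1 match 4: gtcttgtgtgctcatgTGGTGCTccca
Oxct1 match: aaggcatatgctctgcTGGTGCTgaca
Slc16a1 match: gcctctagtctaccagTGGTGCTcagt
Match 2 of Bdh1 is followed by an A, which makes it an 8mer, the kind of site known to act most strongly. Its capitals lie at chr16:31457891-31457897, and those of the other 3 at chr16:31457320-31457326, chr16:31457903-31457909 and chr16:31457995-31458001. Counted from the start of the 3' UTR, match 1 begins at base 226, match 2 at 797, match 3 at 809 and match 4 at 901, so the printed stretches of matches 2 and 3 overlap. Of the 3 annotated coding transcripts of Bdh1, 1 carries matches 2, 3 and 4, and 2 carry match 1. The match in Oxct1 lies at chr15:4154322-4154328, base 553 of the 3' UTR, and that in Slc16a1 at chr3:104655796-104655802, base 74.

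**Figure D1:**
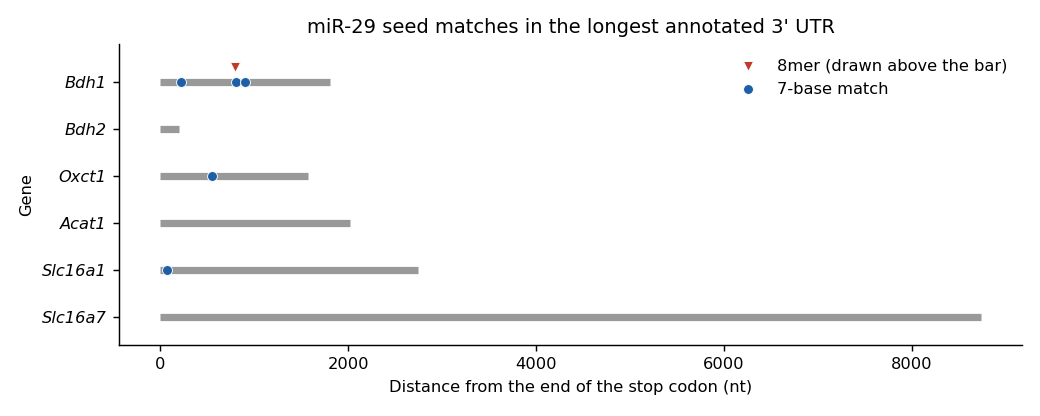
Where the seed matches lie along the 3' UTR of each of the 6 genes, as the distance in nt from the end of the stop codon (x axis), with each UTR drawn to scale as a grey bar, blue circles for matches and a red triangle for the 8mer. Bdh1 has 4 matches within 1807 nt, 3 of them starting between 797 and 901 nt, while Slc16a7 has no match of this kind in 8742 nt.

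Of 13132 tested rows with an annotated 3' UTR, 15.8% held at least 1 match and 0.160%, or 21 rows, held at least 4. Among the 2049 rows whose 3' UTR was within 20% of the length of that of Bdh1, Bdh1 was the only one with 4. The rows with at least 4 matches had a median 3' UTR of 6791 nt. The longest were annotated at 122583 nt (D10Wsu102e) and 39397 nt (D1Ertd622e). Whether the cortex uses the annotated 3' UTRs of these rows was not tested. Of these 21 rows 17 were higher in anti-miR-29a libraries, and the median difference of all 21 was 0.18 log2 units, against 56.8% higher and a median of 0.026 over all 13132. Bdh1 had the second largest difference of the 21, at 0.74, after the collagen gene Col26a1 (0.94) and before the DNA methyltransferase gene Dnmt3a (0.69). The 2071 rows with at least 1 match had a median of 0.025 and 57.1% were higher. For the 328 rows with at least 2 the values were 0.028 and 55.8%, against 0.026 and 56.8% over all 13132 rows. Among the rows with a 3' UTR near the Bdh1 length the 345 with at least 1 match had a median of 0.046 and 66.1% were higher, against 0.014 and 54.2% for all 2049, and the 38 with at least 2 had a median of 0.13 and 76.3% higher. Bdh1 is 1 of the rows in each of these counts. It was chosen with its difference known, so its rank among the 21 supports nothing about its matches.

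Bdh1 was higher in every anti-miR-29a library than in any control library. It read 14.02, 11.17, 11.99 and 13.34 FPKM in scrambled replicates 1 to 4 and 20.1, 23.1, 20.6 and 20.7 FPKM in anti-miR-29a replicates 1 to 4. The gap between the highest control and the lowest treated library was wider than the range within either group. The means were 12.6 ± 1.29 and 21.1 ± 1.33 FPKM (SD, n = 4 each), a ratio of 1.67. On log2(FPKM + 0.1) the difference was 0.74 with a standard error of 0.085, larger than that of 98.3% of the 13912 tested rows. Its adjusted p was 0.0384 (limma, adjusted over all 13912 rows), in a comparison whose outcome for Bdh1 was known when the genes were chosen. Of the 5 members that could be tested Bdh1 alone passed, and over all rows 0.0144% passed, 1 row higher and 1 lower. The row just outside the threshold of 0.05 had an adjusted p of 0.0749.

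The size of the Bdh1 difference moved little when the data were handled otherwise, but its call was narrow. Leaving out each library in turn gave differences of 0.68 to 0.79, and none of these 8 fits passed (limma, adjusted p = 0.0541 to 0.225). With the filter on low values taken again over the 7 libraries left, 1 of the 8 passed, that without scrambled replicate 1 (limma, adjusted p = 0.0436). With the replicate number as a block the difference was again 0.74 (limma, adjusted p = 0.195). Correlations over the whole table showed no sign of such a pairing but do not exclude it.

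Bdh2 encodes a cytosolic relative that was named for the same reaction, and its row lay near the floor of the table. It read 0.632, 0.201, 0.0519 and 0.159 FPKM in scrambled replicates 1 to 4 and 0.362, 0.318, 0.106 and 0.379 FPKM in the treated ones. The groups overlapped fully, with every anti-miR-29a value inside the control range. The mean over the 8 libraries, 0.276 FPKM, was below the minimum of 0.5 FPKM for testing, so Bdh2 has no test, and without scrambled replicate 3 its log2 difference changed from 0.28 to -0.051.

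Oxct1, the coenzyme A transferase that commits acetoacetate to oxidation, was the most abundant of the 6. It read 49.0, 47.5, 49.0 and 55.2 FPKM in scrambled replicates 1 to 4 and 52.2, 57.4, 55.5 and 59.4 FPKM in the treated ones. The groups overlapped through scrambled replicate 4, which lay above anti-miR-29a replicate 1, and 3 of 4 treated libraries exceeded every control. The log2 difference was 0.16 with a standard error of 0.062, against 0.74 for Bdh1, and did not pass (limma, adjusted p = 0.397). Acat1, the mitochondrial thiolase, read 14.9, 14.3, 13.2 and 17.0 FPKM in scrambled replicates 1 to 4 and 15.7, 16.1, 16.5 and 14.5 FPKM in the treated ones. All treated values lay within the control range, and the log2 difference was 0.083 (standard error 0.086; limma, adjusted p = 0.765), 0.030 without scrambled replicate 3 and 0.15 without scrambled replicate 4.

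The enzymes thus stood in a different ratio in the 2 groups. Bdh1 was 0.286, 0.235, 0.245 and 0.241 of Oxct1 in scrambled replicates 1 to 4 and 0.385, 0.402, 0.372 and 0.348 of it in anti-miR-29a replicates 1 to 4, on the FPKM scale. Against Acat1 the order turned: Bdh1 was the lower of the pair in 4 of 4 control libraries, at 0.783 to 0.941 of Acat1, and the higher in 4 of 4 treated libraries, at 1.25 to 1.43 of it. The ratio of Oxct1 to Acat1 showed no such step, at 3.25 to 3.70 in control and 3.33 to 4.10 in treated libraries. These ratios rest on the same Bdh1 values and are no further evidence of its difference.

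**Figure D2:**
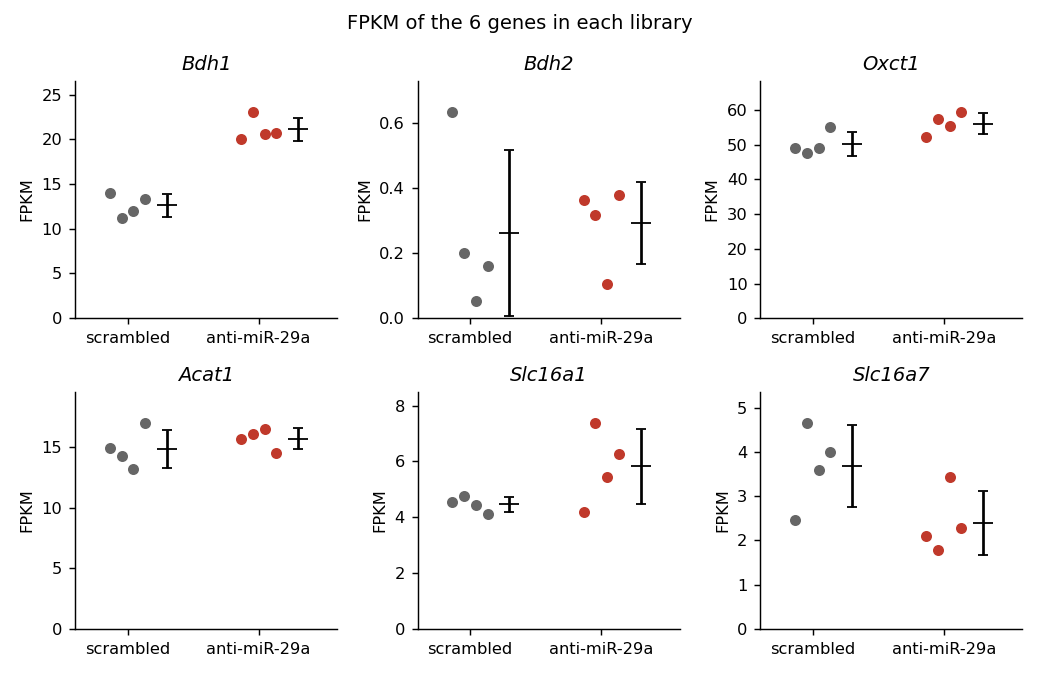
FPKM (y axis, each panel from 0 on its own scale) of the 6 genes in the 4 scrambled (grey) and 4 anti-miR-29a (red) libraries, with replicates 1 to 4 from left to right and the group mean ± SD as a black bar. The groups are apart for Bdh1 (11.2 to 14.0 against 20.1 to 23.1 FPKM) and overlap for the other 5 genes.

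The carriers pointed in opposite directions, without passing. Slc16a1, or MCT1, is the carrier of the blood-brain barrier endothelium and of glia. It read 4.55, 4.75, 4.43 and 4.12 FPKM in scrambled replicates 1 to 4 and 4.19, 7.39, 5.44 and 6.26 FPKM in the treated ones. The control libraries lay close together and the treated ones were spread, with anti-miR-29a replicate 1 inside the control range and the other 3 above it. The log2 difference was 0.35 (standard error 0.157; limma, adjusted p = 0.466), 0.23 without anti-miR-29a replicate 2 and 0.49 without replicate 1 of that group.

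Slc16a7, or MCT2, is the high-affinity carrier of neurons. It read 2.46, 4.66, 3.60 and 3.99 FPKM in scrambled replicates 1 to 4 and 2.11, 1.78, 3.43 and 2.27 FPKM in the treated ones. Scrambled replicate 1 and anti-miR-29a replicate 3 made the groups overlap, and 3 of 4 treated libraries lay below every control. The log2 difference was -0.60 (standard error 0.234; limma, adjusted p = 0.397), and -0.48 to -0.78 when each library was left out. The ratio of Slc16a1 to Slc16a7 was 1.02 to 1.85 in control libraries and 1.59 to 4.15 in treated ones, where anti-miR-29a replicate 2 had the highest value. Of the 6 genes Bdh1 was the only one whose groups did not overlap, compared with 6.31% of all tested rows.

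**Figure D3:**
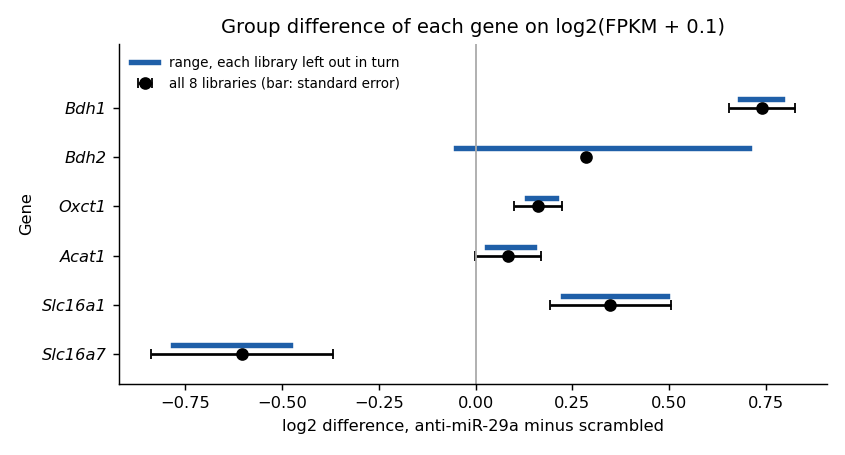
Difference in mean log2(FPKM + 0.1) between anti-miR-29a and scrambled libraries (x axis) for each gene, with the standard error from limma as a black bar and the range over the 8 fits that leave out 1 library as a blue line. Bdh2 was too low to be tested and has no standard error, and its range of -0.051 to 0.71 crosses 0, while that of Bdh1 is 0.68 to 0.79.

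Transcript length has to be read beside the carriers, because in these libraries the group difference followed it over the whole table. The median difference was 0.12 log2 units for tested rows with a transcript of 200 to 1000 nt, 0.0047 for those of 3000 to 6000 nt and -0.094 for the 334 rows of 10000 nt or more. Slc16a7, with a transcript of 10981 nt, belongs to the last class, where 23.4% of rows were higher. Bdh1 (3122 nt), Acat1 (3405 nt), Oxct1 (3527 nt) and Slc16a1 (4426 nt) belong to a class with a median near 0. With a smooth trend on length and GC content removed from each library, the log2 difference of Slc16a7 was -0.45 and that of Bdh1 0.68, and Bdh1 passed (limma, adjusted p = 0.0347).

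**Figure D4:**
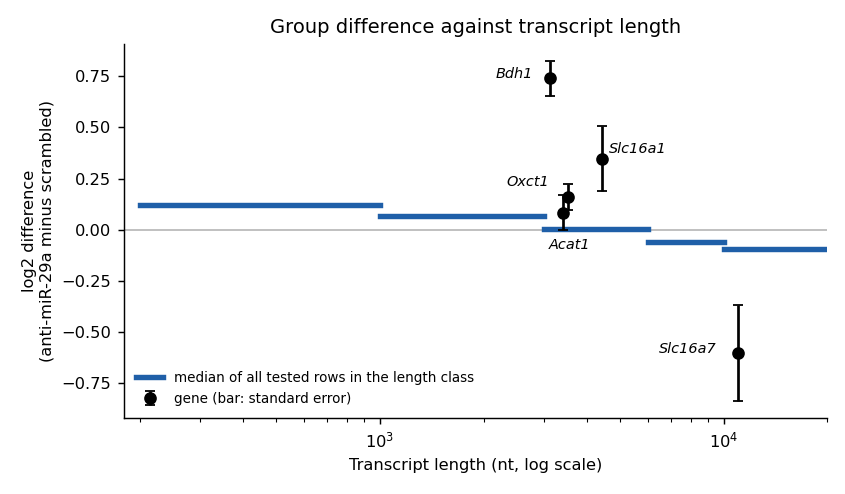
Difference in mean log2(FPKM + 0.1) between groups (y axis) against transcript length in nt (x axis, log scale) for the 5 tested genes (points, with the standard error), over the median of all tested rows in 5 length classes (blue lines). The class medians fall from 0.12 to -0.094, and Bdh1 and Slc16a7 lie 0.74 above and 0.60 below 0.

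The order of levels did not enter the choice of genes and was tested over all 8 libraries. By mean FPKM, which is scaled to length, it ran Oxct1 (53.2), Bdh1 (16.9), Acat1 (15.3), Slc16a1 (5.14), Slc16a7 (3.04) and Bdh2 (0.276). The neighbouring pairs were taken from this order, which was found in the same libraries. In 4 of the 5 neighbouring pairs the gene placed higher was higher in 8 of 8 libraries, each with p = 0.00781, the smallest that an exact two-sided sign-flip permutation test over 8 libraries can give, and an adjusted p of 0.00977 over the 5 pairs. On the log2(FPKM + 0.1) scale the level of Oxct1 exceeded that of Bdh1 by 1.70 ± 0.325 and that of Acat1 exceeded Slc16a1 by 1.58 ± 0.306. That of Slc16a1 exceeded Slc16a7 by 0.78 ± 0.685 (SD, n = 8 libraries for each). These SDs are taken over both groups, so they also hold the differences between the groups, among them that of Bdh1. In the scrambled libraries alone these differences of level were 1.99, 1.71 and 0.31. Slc16a1 was there 1.02 to 1.85 of Slc16a7, and 1.59 to 4.15 of it in treated libraries. For the pair of Bdh1 and Acat1 a test over both groups says nothing, since their order differed between the groups: Bdh1 minus Acat1 was -0.23 ± 0.138 log2 units in control libraries and 0.43 ± 0.102 in treated ones (SD, n = 4 each). Within 1 group of 4 libraries an exact permutation test cannot give a p below 0.125.

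Genes around the pathway were taken from 5 lists with 82 genes, of which 69 were tested. None passed over all 13912 rows (limma). At an unadjusted p under 0.05 there were 14, of which 9 were higher and 5 lower, and over all tested rows 10.7% were under it. The groups did not overlap for 10 of the 69, or 14.5%, against 6.31% of all tested rows, and 9 of these were higher. The lists were chosen with earlier results of these data known, so this share is a description only. It was not counted again with the length and GC trend removed. Of the 69 genes 60.9% had a positive difference, with a median of 0.052 log2 units, against 56.6% and 0.026 over all tested rows. The trend with length also touches these lists: with the length and GC trend removed the list medians lay between -0.073 and 0.021, against -0.0082 over all rows of that fit.

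The other monocarboxylate carriers and lactate genes held 5 of those 10. Slc16a3, or MCT4, the lactate-exporting carrier of glycolytic cells and astrocytes, read 1.36, 1.85, 1.39 and 1.59 FPKM in scrambled replicates 1 to 4 and 2.85, 3.07, 2.82 and 2.78 FPKM in the treated ones. All treated libraries lay above all controls, with a log2 difference of 0.86 and a standard error of 0.146, and the gene missed the threshold (limma, adjusted p = 0.106, and 0.0805 to 0.332 over its alternatives). Ldhb, the lactate dehydrogenase subunit suited to using lactate, read 362.9 ± 18.0 and 397.7 ± 11.9 FPKM (limma, adjusted p = 0.324), and its log2 difference of 0.13 became 0.0078 with the length and GC trend removed and 0.029 with quantile normalization. Slc16a13 and Bsg, named after their values were seen, were also among them, the latter encoding basigin, the chaperone of MCT1 and MCT4, with log2 differences of 0.46 and 0.12. Slc16a11 stood lower, at 8.10 ± 1.23 and 5.33 ± 1.67 FPKM (limma, adjusted p = 0.314). Of the 13 tested genes of this list 7 were higher and 6 lower, with a median of 0.070.

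Among the 6 tested genes of ketone body synthesis 3 were higher and 3 lower, with a median of -0.024. Hmgcs1, the cytosolic synthase that serves cholesterol synthesis, was lower in 4 of 4 treated libraries than in any control, at 41.3 ± 3.28 and 35.7 ± 2.43 FPKM (limma, adjusted p = 0.351). Aacs, which activates acetoacetate in the cytosol for lipid synthesis, and Acat2, the cytosolic thiolase, differed by 0.17 and -0.089 log2 units, and by 0.11 to 0.21 and -0.14 to -0.022 when each library was left out. Oxct2a and Oxct2b, the testis forms of the transferase, and the ketone body receptor gene Hcar2 lay below the filter.

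Fatty acid oxidation genes, which supply the same acetyl-CoA pool, were higher in 18 of 22 tested members with a median of 0.094, against 56.6% and 0.026 over all tested rows. With the length and GC trend removed 13 of the 22, or 59.1%, were higher, with a median of 0.021. Over all rows of that fit 47.7% were higher, with a median of -0.0082. Cpt2, which reforms acyl-CoA inside mitochondria, read 1.11, 1.41, 1.35 and 1.83 FPKM in scrambled replicates 1 to 4 and 2.13, 2.66, 1.84 and 2.32 FPKM in the treated ones, so that the groups just cleared each other. Its log2 difference was 0.63 (standard error 0.192; limma, adjusted p = 0.297). Crat, a carnitine acetyltransferase, read 8.87 ± 0.477 and 10.6 ± 0.752 FPKM without overlap (limma, adjusted p = 0.297), and Eci1 and Echs1 differed by 0.32 and 0.18 log2 units with overlap, and by 0.19 and 0.076 with the length and GC trend removed. Without scrambled replicate 4 the difference of Eci1 was 0.17, and without scrambled replicate 2 that of Echs1 was 0.12.

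Genes for pyruvate entry were split, 8 higher and 6 lower, with a median of 0.042. Pdhb, a pyruvate dehydrogenase subunit, read 49.2 ± 3.97 and 58.1 ± 1.32 FPKM without overlap (limma, adjusted p = 0.234), and its log2 difference of 0.24 became 0.16 with the length and GC trend removed. Pdp2, a phosphatase that activates this enzyme, Pdk3, a kinase that inhibits it, and Pcx, pyruvate carboxylase, stood at -0.52, -0.27 and -0.13, and at -0.64 to -0.40, -0.35 to -0.18 and -0.16 to -0.080 when each library was left out. Of 14 tested regulators 6 were higher and 8 lower, with a median of -0.014. Esrra, a nuclear receptor of mitochondrial genes, read 13.5 ± 0.389 and 15.6 ± 0.775 FPKM without overlap (limma, adjusted p = 0.291), and its log2 difference of 0.21 became 0.11 with the length and GC trend removed. Sirt5, a mitochondrial deacylase, Ppard and Esrrg differed by -0.33, 0.15 and -0.22 log2 units, and by -0.43 to -0.27, 0.074 to 0.22 and -0.34 to -0.11 when each library was left out.

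**Figure D5:**
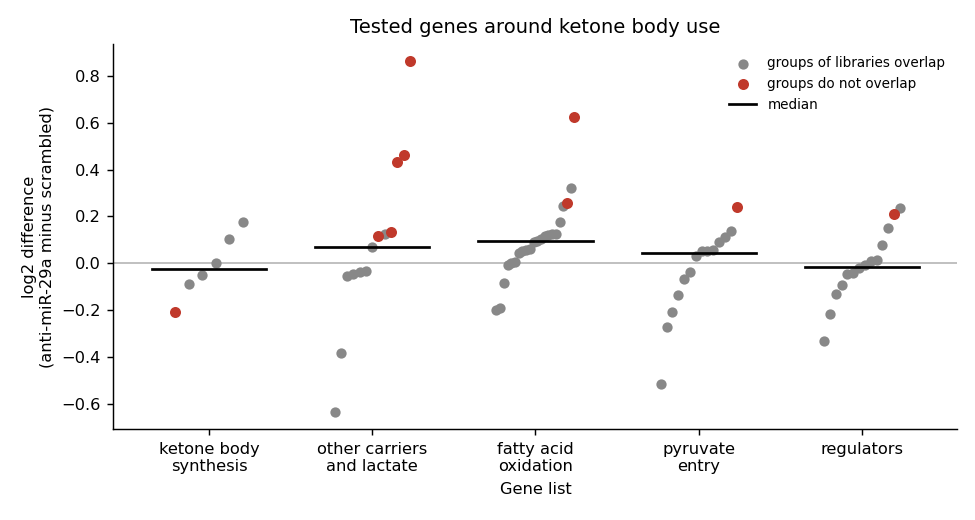
Difference in mean log2(FPKM + 0.1) between anti-miR-29a and scrambled libraries (y axis) for each tested gene of the 5 lists (x axis), sorted within a list, with the list median as a black line. Red points mark the 10 genes whose groups of libraries do not overlap, the highest of them Slc16a3 at 0.86, and the medians lie between -0.024 and 0.094.

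Cell type markers were read beside these genes, since the carriers differ between cell types. Neuronal markers were high in all libraries, led by Snap25 at 1628 FPKM, and markers of choroid plexus and of liver, where ketone bodies are made, each summed to at most 2.08 FPKM in any library, with Cyp3a11 listed at 0 throughout. The summed level of 8 endothelial markers was 87.4 to 116.2 FPKM in control and 101.5 to 115.1 in treated libraries, with 4 of 8 higher. The 8 neuronal markers summed to 2987 to 3157 and 2905 to 3179 FPKM, with 3 of 8 higher, and the 8 astrocyte markers to 742.9 to 781.7 and 693.4 to 831.0 FPKM, again with 3 of 8 higher. All 8 oligodendrocyte markers were lower by a median of 0.15 log2 units, with overlapping sums of 835.5 to 1708 and 931.2 to 1239 FPKM. Microglial markers were higher in 4 of 8 and mural markers in 4 of 6. Fibroblast markers were higher in 6 of 7, with a median of 0.61 over all 7 and sums of 331.1 to 519.1 and 482.0 to 739.3 FPKM, and red blood cell markers in 3 of 4, with sums of 60.2 to 168.8 and 124.6 to 171.4 FPKM. The part of these cells in the differences of the 6 genes was not tested.

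The library kit does not mark strand, so reads from an overlapping antisense transcript would count for the gene. Of the annotated transcripts that overlap a member on the opposite strand BC037032, at the 5' end of Oxct1, had a row, with a mean of 0.132 FPKM, and Gm15743 within Bdh1 was not analysed here. Bdh1 lies at chr16:31422280-31458901, and its nearest coding neighbours, Apod and Dlg1, differed by 0.26 and -0.13 log2 units. The groups overlapped for Apod and did not for Dlg1 (limma, adjusted p = 0.518).

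Of the 5 genes whose pattern over the 8 libraries was most like that of Bdh1, by Pearson's r of log2(FPKM + 0.1) among 12569 other rows of at least 1 FPKM, 4 were Paf1 (r = 0.989), Dnmt3a (0.977), Dcakd (0.962) and Traf3 (0.960). All 5 had non-overlapping groups with the treated libraries higher, as the measure of likeness favours. With values centred within each group the 5 had r of 0.56 to 0.94, Paf1 having the highest. The most opposed were Prrc1 and Slc36a4, both at -0.976. Dnmt3a held 5 seed matches and Traf3 held 3, while Paf1 and Dcakd held 0. Among the members r with Bdh1 was 0.792 for Oxct1, 0.674 for Slc16a1, 0.482 for Acat1 and -0.782 for Slc16a7, all over the same 8 libraries and depths. Centred within each group, r was 0.497 for Oxct1, 0.319 for Slc16a1, 0.5 for Acat1 and -0.668 for Slc16a7.

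Each library listed 12538 to 12769 rows at 1 FPKM or more, and the spacing of low values put their relative depths at 0.983 to 1.17 of scrambled replicate 1. Between any pair of libraries the log2 values correlated at 0.962 to 0.977 inside a group and 0.964 to 0.973 across groups (Pearson). Scrambled replicates 2 and 3 and anti-miR-29a replicate 3 each stood apart on 1 of the first 3 principal components, which held 19.9%, 17.4% and 15.6% of the variance. On the first component all 4 treated libraries, at 8.64 to 15.6, lay above all 4 controls, the highest of which was at 0.862. Without these libraries in turn the log2 difference of Bdh1 was 0.68, 0.72 and 0.75.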

How the data were processed

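The series holds 8 RNA-seq libraries, 4 per group, named by their labels. The authors deposited FPKM values, 1 per gene row and library, and the submitters' processing notes name CASAVA 1.8.2, Bowtie and Cuffnorm with mm10. For annotation, filters and scaling the entry is: not given in the sources used here. Without fragment counts the precision of a single value is not known. The labels' protocols give total RNA and the TruSeq RNA v2 kit, which does not mark strand.

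Values were taken as log2(FPKM + 0.1), which understates the change of low genes. Rows with a mean of at least 0.5 FPKM (13912) were fitted with limma 3.58.1 in R 4.3.3, group as the only term, variance trend, two-sided, Benjamini-Hochberg adjustment over all rows and a threshold of 0.05. The fit was tested on simulated data. Levels were compared by an exact sign-flip permutation test. Lengths, 3' UTRs and seed matches came from GENCODE M21, which 99.1% of tested symbols matched, and miR-29 sequences from RefSeq.

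Members, gene lists and tests were chosen with earlier results of these data known. Named genes are the members, up to 4 of smallest p from each list, the 5 rows most and 2 least correlated with Bdh1, and the top or absent genes of marker lists; some genes that this rule names are not reported here. Alternatives were the replicate number as a block, removal of a length and GC trend (mgcv 1.9.3), only rows with an annotated transcript of at least 200 nt, robust empirical Bayes, weights per sample, centring on the median, quantile normalization, pseudocounts of 1 and 0.01, no filter, a minimum mean of 5 FPKM, and each library left out over the same 13912 rows. The fits with a library left out were first run with the filter taken again, and were changed to the same rows after the values had been seen; both are given.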

Additional observations from a re-analysis of the deposited data

Results flagged for a closer look

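The check took 60 groups of 4 libraries, for the members and the genes reported by smallest p from the lists or by likeness to Bdh1. In each group a value was looked for whose gap to its nearest neighbour passed Dixon's limit for its share of the range. Chance gives this in about 1 in 20 groups. It was met by 2 values and by no member: Aacs in anti-miR-29a replicate 1, at 9.70 FPKM against 10.6 to 10.7 in the other 3 treated libraries, and Pcx in scrambled replicate 2, at 15.5 FPKM against 13.6 to 13.8 in the other 3 controls.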

How the results depend on the processing

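The direction of the differences of Bdh1, Oxct1, Acat1, Slc16a1 and Slc16a7 was the same under every alternative that gave a value, and only Bdh1 changed its side of the threshold. Its log2 difference of 0.74 was unchanged but missed the threshold without a filter (limma, adjusted p = 0.0754), among rows with an annotated transcript of at least 200 nt (adjusted p = 0.0539) and with the replicate block (adjusted p = 0.195), and 0.68 to 0.79 missed it in the 8 fits without 1 library. Those fits were first run with the filter taken again over the 7 libraries left, and Bdh1 then passed in 1 of 8, without scrambled replicate 1 (limma, adjusted p = 0.0436, and 0.055 to 0.214 in the others), with 1 to 4 rows called. The differences do not depend on that filter and were 0.72 and 0.77 without scrambled replicates 3 and 4, and 0.76, 0.70, 0.75 and 0.75 without anti-miR-29a replicates 1 to 4. The change to a fixed set of rows was made after these values were seen, and it is the less favourable version for Bdh1. Libraries with equal replicate numbers showed no sign of pairing: their deviations correlated at -0.106 to 0.0143. Low correlations over the whole table do not exclude a pairing. With the block 0 rows were called instead of 2. The number called was also 0 among rows with an annotated transcript, 1 with no filter and with a mean of at least 5 FPKM, 10 with robust empirical Bayes, and 1 to 3 without 1 library, with 1 without scrambled replicate 1, anti-miR-29a replicate 1 or replicate 4. The pathway lists had 0 called in every alternative. Slc16a7 had no value at a mean of at least 5 FPKM, and Bdh2 had no test under any alternative.

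In the scrambled libraries alone the level differences were 1.99 (Oxct1 over Bdh1), 1.71 (Acat1 over Slc16a1), 0.31 (Slc16a1 over Slc16a7) and 3.60 (Slc16a7 over Bdh2), and Bdh1 over Acat1 turned to -0.23. With 4 libraries no p can go below 0.125, so these could not pass. Counting 8mers only left 1 match in Bdh1 and 0 in Oxct1 and Slc16a1, and counting sites of bases 2 to 7 followed by an A gave Slc16a7 3. None of the 5 genes most like Bdh1 (0 of 5) was among the top 5 by Spearman's rho or after centring within groups. The causes were not tested.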
